A study of Oryzias latipes with 10 samples.

Results

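Cells hold on to the extracellular matrix through integrins, transmembrane receptors that switch between a resting and an active state. Kindlins and talins bind the cytoplasmic tail of integrins and switch them on, adaptors such as vinculin and vinexin tie the bound receptors to actin filaments, and the whole assembly is called a focal adhesion. Yap is the transcriptional co-activator at the end of the Hippo pathway, and in cultured cells its activity is known to follow the tension carried by actin and by focal adhesions. Described here are 5 genes of this machinery in medaka (*Oryzias latipes*) embryos: *fermt1* (a kindlin), *apbb1ip* (RIAM, which brings talin to the membrane in mammalian cells), *vclb* (vinculin), *sorbs3* (vinexin) and *cav1* (caveolin, the coat protein of membrane pits called caveolae). They are 5 of the 24365 genes in the count table, chosen because the Ensembl gene carries one of these symbols in the tables published with the data.

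The embryos were whole embryos at stage 16, during gastrulation, raised in E3 medium at 28 °C. The *yap* single mutants are labelled yap-/- (3 libraries) and carry the allele *yap1*Δ7pb, the *yap* double mutants are labelled yap-/- yap1b-/- (3 libraries) and carry *yap1b*Δ136pb as well, and the wild type (WT, 4 libraries) is of the iCab strain. Each embryo was genotyped from its own DNA and the RNA of embryos of 1 genotype was pooled before sequencing, so that a library is a pool, and nothing in the labels says whether pools of 1 genotype came from separate clutches. The tables from which the symbols were taken list genes that the study called different between these same mutants and WT. The 5 genes were thus selected on their measured difference between mutants and WT in these libraries, and those differences are given as a description. The calls of the model given for the 5 genes below, and whether they hold in other runs, are no independent test of these differences.

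The reads assigned to genes numbered between 22053738 and 37776961 for a single mutant library, between 29521935 and 30627401 for a double mutant library and between 28978596 and 38383959 for a WT library. The library WT 4 stood apart from WT 1–3: across genes, which are not independent replicates, the Pearson correlation of its log2 CPM (log2 of the count scaled by library size) was 0.952 with each of WT 1–3 and 0.958 to 0.970 with the double mutants, and WT 1–3 correlated at about 0.990 among themselves. The model therefore has a term for 2 library sets, the single mutants together with WT 1–3, and the double mutants together with WT 4. The set was read from expression values and no label names it. In this model the WT reference is WT 1–3 for the single mutants and WT 4 alone for the double mutants, so for the double mutants genotype, set and the particular WT library cannot be told apart. For this reason the values of WT 4 are given beside those of WT 1–3 throughout. *yap1* had between 2656 and 2993 normalized counts (raw counts scaled to a common library size by TMM) in single mutant libraries and between 2707 and 3356 in double mutant libraries, against 9028 to 9358 in WT 1–3 and 5470 in WT 4. *yap1b* had between 846 and 955 in double mutant libraries and between 1856 and 2349 in single mutant libraries, against 2270 to 2704 in WT. In every mutant library the genes its label names as mutated lay below all 4 WT libraries.

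All 5 genes had counts in every library and passed the filter of a mean of at least 10 counts, with 16513 of the 24365 genes. Their log2 fold changes were all below 0 in both mutants. The model called 3 of the 5 lower in the single mutants (*fermt1*, *vclb* and *apbb1ip*) at an adjusted p under 0.05, where 0.6% of all tested genes were called lower. It called 4 of the 5 lower in the double mutants (*fermt1*, *vclb*, *sorbs3* and *cav1*), where 2.02% of all tested genes were. Since the genes came from lists of such calls, nothing is read from these counts. Every mutant library lay below every WT library for 4 of the 5 (*fermt1*, *vclb*, *sorbs3* and *apbb1ip*), a placement that 3.75% of all tested genes had. The single mutants alone lay below all 4 WT libraries for the same 4 genes and for 6.03% of tested genes, and for *cav1* only the double mutants lay below all 4 WT libraries, as did 15.7% of tested genes. The median log2 fold change of the 5 genes was −0.65 in the single mutants over WT 1–3 and −1.26 in the double mutants over WT 4, beside 0.02 and 0.01 over all tested genes. For the double mutants it was −0.96 over WT 1–3 and −1.09 over all 4 WT libraries with no set, beside 0.02 and −0.01 over all tested genes.

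The RNA of a whole embryo mixes all its cells, and fewer cells of a type and less RNA per cell cannot be told apart in it.

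**Figure D1:**
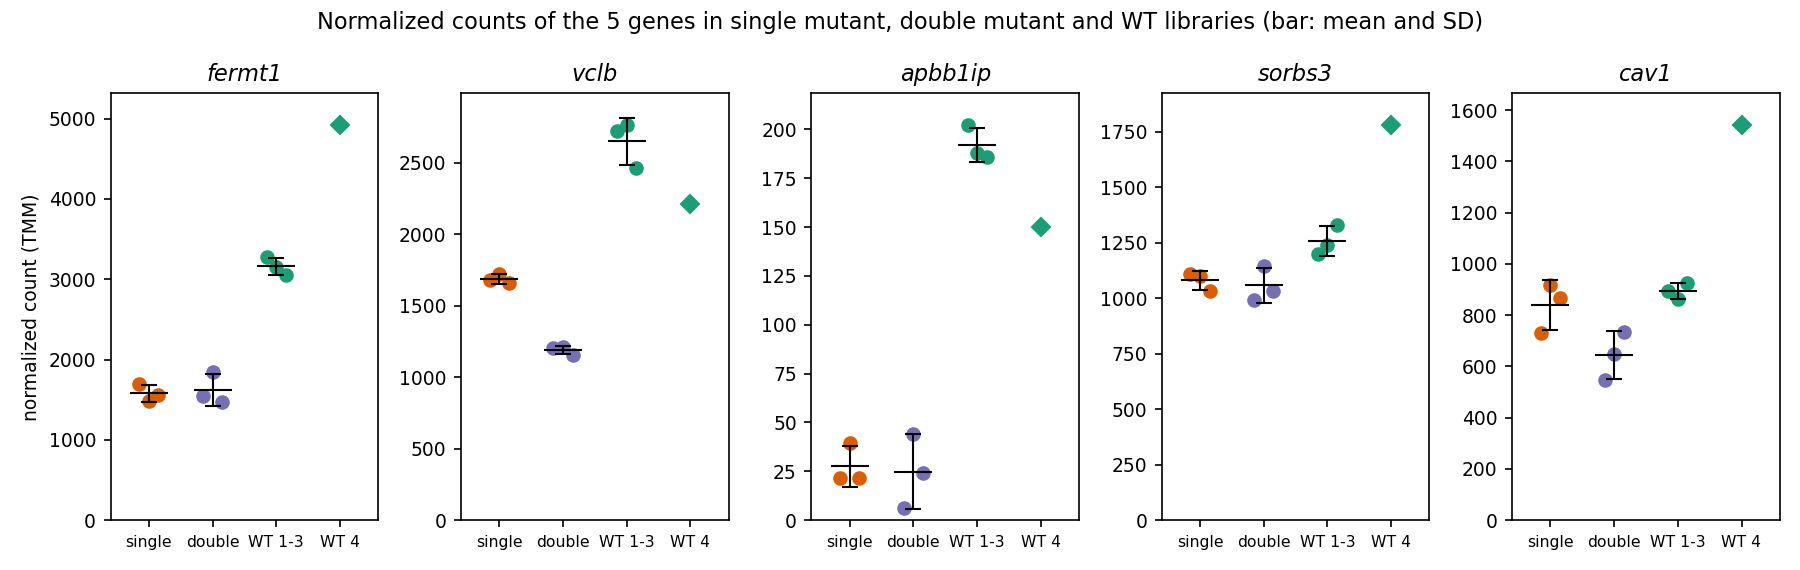
Normalized counts (TMM, linear axis from 0) of the 5 genes, 1 panel a gene, in the 3 single mutant, 3 double mutant and 4 WT libraries. Points are libraries, the diamond is WT 4, and black bars give the mean and SD of each group of 3. The mutants lie below all WT libraries for every gene except *cav1*, whose single mutants (731 to 919) overlap WT 1–3 (862 to 927), and WT 4 is the highest library for *fermt1*, *sorbs3* and *cav1* and the lowest WT library for *vclb* and *apbb1ip*.

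Of the integrin activators, *fermt1* encodes kindlin-1, the kindlin of epithelia in mammals, which binds the tail of β integrins beside talin. In the RefSeq annotation of the ASM223467v1 assembly, which also gives the positions below, the gene (ENSORLG00000009834) spans 2461790 to 2474020 of chromosome 24. *fermt1* had 1695, 1486 and 1555 normalized counts in the 3 single mutants and 1548, 1847 and 1469 in the 3 double mutants, against 3271, 3156 and 3054 in WT 1–3 and 4919 in WT 4. The 6 mutant libraries lay far below the 4 WT libraries with no overlap, and both mutants covered the same range. The single mutants averaged 1579 ± 107 and the double mutants 1621 ± 199, against 3161 ± 109 in WT 1–3 (SD, n = 3 each). This was 49.9% of the WT 1–3 level in the single mutants and 51.3% in the double mutants, and the double mutants stood at 33.0% of WT 4. The log2 fold change was −1.0 (SE 0.11) in the single mutants over WT 1–3 and −1.60 (SE 0.15) in the double mutants over WT 4. Against WT 1–3 the value of the double mutants was −0.96 (SE 0.11), so the larger fold of the double mutants in the model goes with the high level in WT 4.

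*apbb1ip* encodes RIAM, an effector of the small GTPase Rap1 that recruits talin to integrins in mammalian cells and is best known from blood cells. The gene (ENSORLG00000012956) lies on chromosome 20, from 23060840 to 23083321. It was the least counted of the 5 genes in every library and the one with the largest relative difference. *apbb1ip* had 21.6, 39.6 and 21.4 normalized counts in the single mutants and 6.0, 44.2 and 24.0 in the double mutants, against 202, 188 and 186 in WT 1–3 and 150 in WT 4. No mutant library came near a WT library. The single mutants kept 14.3% of the WT 1–3 mean, and the double mutants 12.9% of it and 16.5% of WT 4. The log2 fold change was −2.78 (SE 0.51) in the single mutants and −2.59 (SE 0.63) in the double mutants, and −2.95 (SE 0.51) in the double mutants over WT 1–3. It was the gene with the 33rd lowest fold change of 16513 in the single mutants and the 86th lowest in the double mutants.

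These folds rest on few reads. The raw counts of *apbb1ip* were 13, 45 and 26 in the single mutants and 5, 39 and 23 in the double mutants, against 252, 211, 205 and 135 in WT 1–4. The exact Poisson 95% interval of the 5 reads in double mutant 1 was 1.62 to 11.7, and that of the 39 reads in double mutant 2 was 27.7 to 53.3, so the double mutants differed from each other by more than the counting error (these intervals cover counting error only). Without double mutant 1 the log2 fold change of the double mutants was −2.14, and without double mutant 2 it was −3.29. In the double mutants the model did not call *apbb1ip*, whose estimate against WT 4 alone had the largest SE of the 5 genes, and the models with no set did. With the set kept, DESeq2 called *apbb1ip* too. So did the runs without double mutant 1, without double mutant 2, and without single mutant 1 and double mutant 1 together. In the single mutants its call was lost without any 1 of WT 1, WT 2, WT 3, the 3 single mutants or double mutant 3.

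Of the adaptors toward actin, *vclb* encodes a vinculin, which binds talin and F-actin and is recruited where force is carried. The gene (ENSORLG00000008517, named *vcl* in RefSeq) lies on chromosome 19, from 10046867 to 10071892. *vclb* had 1680, 1724 and 1657 normalized counts in the single mutants and 1202, 1213 and 1155 in the double mutants, against 2720, 2762 and 2462 in WT 1–3 and 2211 in WT 4. The 3 genotypes formed 3 separate ranges, with the double mutants lowest, and the spread within a mutant was the smallest of the 5 genes (a coefficient of variation of 2.59% among the double mutants). It was the only one of the 5 for which every double mutant lay below every single mutant, a placement that 18.1% of all tested genes had. WT 4 was also lower than WT 1–3 by a ratio of 0.835, and the difference between the mutants cannot be told apart from the set. The single mutants kept 63.7% of the WT 1–3 level, and the double mutants 44.9% of it and 53.8% of WT 4. The log2 fold change was −0.65 (SE 0.09) in the single mutants and −0.89 (SE 0.13) in the double mutants over WT 4, and −1.15 (SE 0.09) in the double mutants over WT 1–3. Its call in the single mutants was lost without any 1 of WT 1, WT 2, WT 3, single mutant 2 or single mutant 3.

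*sorbs3* encodes vinexin, an SH3 domain adaptor that binds vinculin. The gene (ENSORLG00000011445) lies on chromosome 9, from 17324750 to 17346792. *sorbs3* had 1110, 1101 and 1033 normalized counts in the single mutants and 992, 1147 and 1034 in the double mutants, against 1198, 1242 and 1331 in WT 1–3 and 1781 in WT 4. The mutants lay just under WT 1–3, with the highest double mutant at 1147 and the lowest WT library at 1198, and only WT 4 stood well above. The single mutants were at 86.0% of WT 1–3, and the double mutants at 84.1% of WT 1–3 but at 59.4% of WT 4. The log2 fold change was −0.22 (SE 0.10) in the single mutants and −0.75 (SE 0.14) in the double mutants over WT 4, and −0.25 (SE 0.10) in the double mutants over WT 1–3. The call of *sorbs3* in the double mutants was lost without the set term, against WT 1–3, with each set fitted alone, with a replicate block in place of the set (where it was −0.25), and without any 1 of WT 1, WT 2, WT 3 or double mutant 1.

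*cav1* encodes caveolin, which forms caveolae, membrane pits that flatten under tension and that in mammalian cells are linked to actin fibres. The gene (ENSORLG00000019746, LOC101162818 in RefSeq) lies on chromosome 6, from 2999160 to 3008803. *cav1* had 731, 919 and 865 normalized counts in the single mutants and 546, 649 and 733 in the double mutants, against 893, 862 and 927 in WT 1–3 and 1542 in WT 4. The single mutants overlapped WT 1–3, with only 1 of the 3 below all of them, and the double mutants were below all WT libraries. Single mutant 1 (731) and double mutant 3 (733) met, so the mutants overlapped by this margin. The single mutants were at 93.8% of WT 1–3, and the double mutants at 71.9% of WT 1–3 and 41.7% of WT 4. The log2 fold change was −0.09 (SE 0.14) in the single mutants and −1.26 (SE 0.18) in the double mutants over WT 4, and −0.48 (SE 0.14) in the double mutants over WT 1–3. Of the 5 genes *cav1* had the largest change of fold with the WT library used.

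**Figure D2:**
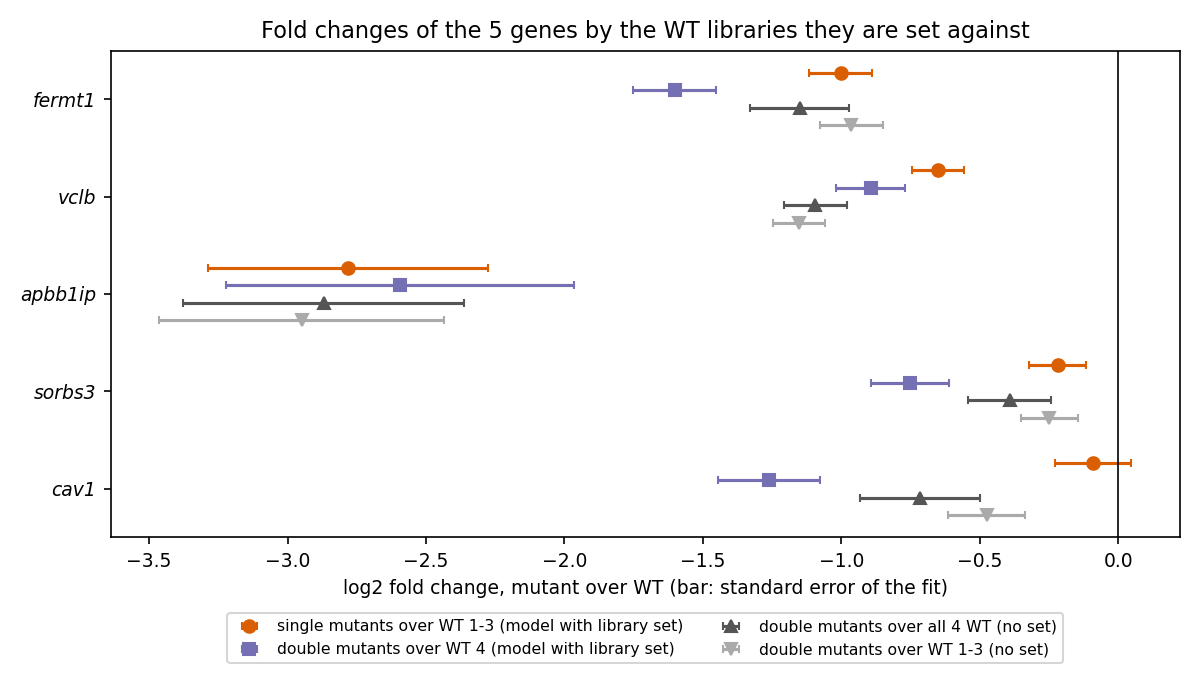
Log2 fold change (mutant over WT, x axis) of each of the 5 genes with the standard error of the fit, for the single mutants over WT 1–3, and for the double mutants over WT 4, over all 4 WT libraries and over WT 1–3. For *fermt1*, *sorbs3* and *cav1* the double mutants move toward 0 as WT 4 leaves the comparison (from −1.26 to −0.48 for *cav1*), and for *vclb* and *apbb1ip* they move away from it (from −0.89 to −1.15 for *vclb*).

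WT 4 lay outside the range of WT 1–3 for all 5 genes, above it for some and below it for others. *fermt1*, *sorbs3* and *cav1* were higher in WT 4 than in each of WT 1–3, with ratios to their mean of 1.56, 1.42 and 1.72, as were 44.7% of all tested genes. *vclb* and *apbb1ip* were lower in WT 4 than in each of WT 1–3, with ratios of 0.835 and 0.782, as were 36.7% of all tested genes. Both placements were common among all tested genes, so no grouping of the 5 genes is read from them. Against WT 1–3, the double mutants kept between 12.9% (*apbb1ip*) and 84.1% (*sorbs3*) of the WT level. The order of the 5 genes by the share kept in the double mutants was *apbb1ip*, *vclb*, *fermt1*, *cav1*, *sorbs3* against WT 1–3, and *apbb1ip*, *fermt1*, *cav1*, *vclb*, *sorbs3* against WT 4, so that only the first and the last place did not depend on the WT library.

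The profiles of the 5 genes over the 10 libraries were compared as log2 CPM centred on each gene's own mean, with the mean absolute difference over the 10 libraries as the measure of likeness. Among the 5 genes *sorbs3* and *cav1* were nearest to each other (0.17), and *apbb1ip* was the farthest from each of the others (0.87 to 1.22). The 3 nearest genes of each were then sought among 1842 genes with a symbol and a mean of at least 50 normalized counts. All but 17 of these take their symbol from the study's tables of called genes, and likeness to such genes is partly a matter of the choice. The nearest genes were also picked on these same 10 libraries. A high or low library that they share with one of the 5 genes follows from that. Near to *fermt1* were *P2RY6* (a receptor for extracellular nucleotides, 0.10) and *hapln3* (a link protein of hyaluronan matrix, 0.12). Like *fermt1* both were highest in WT 4, with *hapln3* at a mean of 3456 normalized counts in the single mutants and 3157 in the double mutants, against 6542 in WT 1–3 and 8752 in WT 4. Nearest to *vclb* were *pdlim1* (a PDZ and LIM domain protein of actin fibres, 0.08), *tp63* (the transcription factor of embryonic epidermis, 0.09) and *trim45* (0.10), each lower in the double than in the single mutants on average. Nearest to *sorbs3* were *perp* (a desmosome protein, 0.08), *tacc1* (0.08) and *BICD2* (a dynein adaptor, 0.09).

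Nearest to *cav1* were *elmo3* (an engulfment and cell motility protein, 0.11), *ptpn3* (a protein tyrosine phosphatase, 0.11) and *PKP1* (plakophilin 1, a desmosome protein, 0.12). *PKP1* shared with *cav1* a high level in WT 4, with means of 1299 normalized counts in the single mutants and 1224 in the double mutants, against 1567 in WT 1–3 and 2536 in WT 4. *apbb1ip* had no close neighbour. Its nearest genes were *frem1a* (a basement membrane protein, 0.44), *col1a1b* (a chain of collagen I, 0.44) and *SYDE1* (0.45). *frem1a*, *col1a1b* and *SYDE1* each had their lowest level in double mutant 1, as *apbb1ip* did. *frem1a* averaged 322 normalized counts in the single mutants and 207 in the double mutants, against 1195 in WT 1–3 and 1068 in WT 4.

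**Figure D3:**
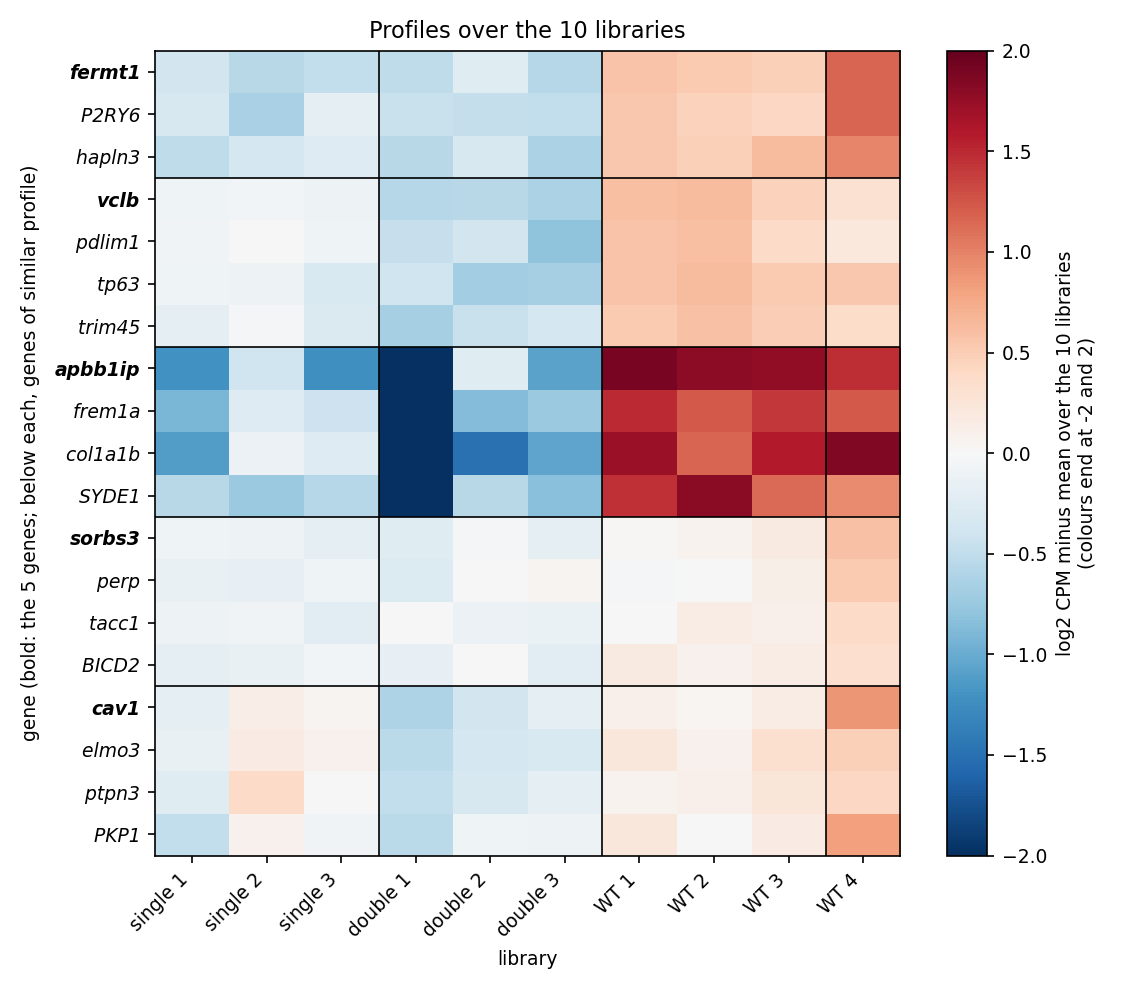
Log2 CPM minus the gene's mean over the 10 libraries (colour, ends at −2 and 2) for the 5 genes in bold and, under each, 2 or 3 of the genes of most similar profile. Columns are the 3 single mutant, 3 double mutant and 4 WT libraries. *fermt1* and its neighbours are darkest in WT 4, the block of *vclb* is lowest in the double mutants, and the block of *apbb1ip* is lowest in double mutant 1, where *apbb1ip* stands at −2.78.

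The wider set of focal adhesion genes was taken from a list of 71 names of known components. Of these, 22 could be matched to 23 rows of the count table, in every case through the study's tables of called genes, and the paralogs of the 5 genes are not analysed here. All 23 genes were tested. The list is thus not independent evidence of a direction, nor of an excess of calls over all tested genes. Its log2 fold changes were below 0 for 21 of 23 genes in the single mutants, with a median of −0.46, and for 22 of 23 in the double mutants, with a median of −0.65. Over WT 1–3 the double mutants were below 0 for 20 of 23, with a median of −0.81. Only *nexn* was called in the single mutants, 1 of 23 where 0.6% of all tested genes were called lower, and *actn1*, *flna* and *nexn* were called in the double mutants, 3 of 23 where 2.02% were. No gene of the list was called higher, as 0.0908% of all tested genes were in the single mutants and 0.285% in the double mutants. The model with no set called the same 1 gene in the single mutants, where it called 0.521% of all genes lower, and 16 of 23 genes lower in the double mutants, where it called 13.1% of all genes lower. The 3 genes called in the double mutants were called in both models and lay below all 4 WT libraries.

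Since the names of the list came from tables of called genes, nothing is read from its placements beside those of all tested genes. Of the actin linkers, 9 were matched, and 7 of the 9 lay below all 4 WT libraries in the single mutants and 7 in the double mutants, beside 6.03% and 15.7% of all tested genes. Over the whole list 11 of 23 did so in the single mutants and 18 of 23 in the double mutants. In the single mutants these included 4 of 8 LIM domain adaptors, 0 of 2 talins and 0 of 4 scaffolds. In the double mutants they included 5, 2 and 4. Set against WT 1–3 only, the single mutants lay below for 17 of 23, with *tln2a*, *bcar1*, *nedd9*, *efs* and *enah* among them. The double mutants did so for 18 of 23. The difference between the mutants in talins and scaffolds thus depended on WT 4. The share of all tested genes placed below WT 1–3 is not given here, so nothing is read from these counts. *actn1*, which encodes α-actinin, a crosslinker of actin filaments, had 2249, 3862 and 3394 normalized counts in the single mutants and 1218, 1645 and 2019 in the double mutants, against 6305, 5968 and 6598 in WT 1–3 and 5855 in WT 4. The 3 genotypes did not overlap, with the double mutants lowest. Its log2 fold change was −0.99 (SE 0.22) in the single mutants, where it was not called, and −1.85 (SE 0.29) in the double mutants. *flna*, which encodes filamin, another actin crosslinker that binds integrin tails, had 5024, 9388 and 7410 normalized counts in the single mutants and 3700, 5073 and 5192 in the double mutants, against 12744 to 13705 in WT 1–3 and 11774 in WT 4. The lowest single mutant fell within the range of the double mutants, and both mutants lay below all WT libraries. The log2 fold change of *flna* was −0.88 (SE 0.22) in the single mutants and −1.34 (SE 0.28) in the double mutants. *nexn*, which encodes nexilin, an actin-binding protein of focal adhesions and muscle, averaged 61.4 ± 7.49 normalized counts in the single mutants and 68.7 ± 9.17 in the double mutants (SD, n = 3 each), against 327, 297 and 212 in WT 1–3 and 220 in WT 4. The mutants overlapped each other far below all WT libraries, with log2 fold changes of −2.18 (SE 0.22) in the single mutants and −1.68 (SE 0.28) in the double mutants. With each library set fitted alone, *actn1* was the only one of these 3 still called in the double mutants, and *flna* also lost its call without any 1 of the 3 double mutants, WT 1, WT 2, WT 3 or single mutant 3.

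Talins switch integrins on together with kindlin and RIAM. *tln1* had log2 fold changes of −0.51 (SE 0.31) in the single mutants and −0.68 (SE 0.42) in the double mutants, and *tln2a* had −0.30 (SE 0.14) and −0.42 (SE 0.20), and neither was called. Both were lower in WT 4 than in each of WT 1–3, and in the double mutants over WT 1–3 they had −1.0 (SE 0.31) and −0.96 (SE 0.14), where both were called, as with genotype alone. Of the 8 LIM domain adaptors, which include *pxnb* (paxillin), *zyx* (zyxin) and *lpp*, every fold was below 0 in both mutants, with a median of −0.33 for the single mutants and of −0.51 for the double mutants, and none was called. In the double mutants over WT 1–3 the direction of *pxnb* turned, with 0.07 (SE 0.19), and with genotype alone *zyx*, *lpp*, *LIMD1* and *pdlim5b* were called lower. The 4 scaffolds, the Cas family members *bcar1*, *nedd9* and *efs* and the actin regulator *enah*, had a median of −0.45 for the single mutants and of −0.43 for the double mutants, and none was called. These 4 were all lower in WT 4 than in WT 1–3, the opposite of *fermt1* and *cav1*, and with no set all 4 were called lower in the double mutants. Of all tested genes, 13.1% were called lower in the double mutants with genotype alone and 21.3% over WT 1–3. *flnc*, a filamin of muscle, was the only gene of the list above 0 in both mutants, with log2 fold changes of 0.34 (SE 0.36) and 0.78 (SE 0.54), neither called. Every double mutant had more *flnc* (110 to 128 normalized counts) than every WT library (69.0 to 96.3). The share of all tested genes placed this way is not given here, so nothing is read from it.

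**Figure D4:**
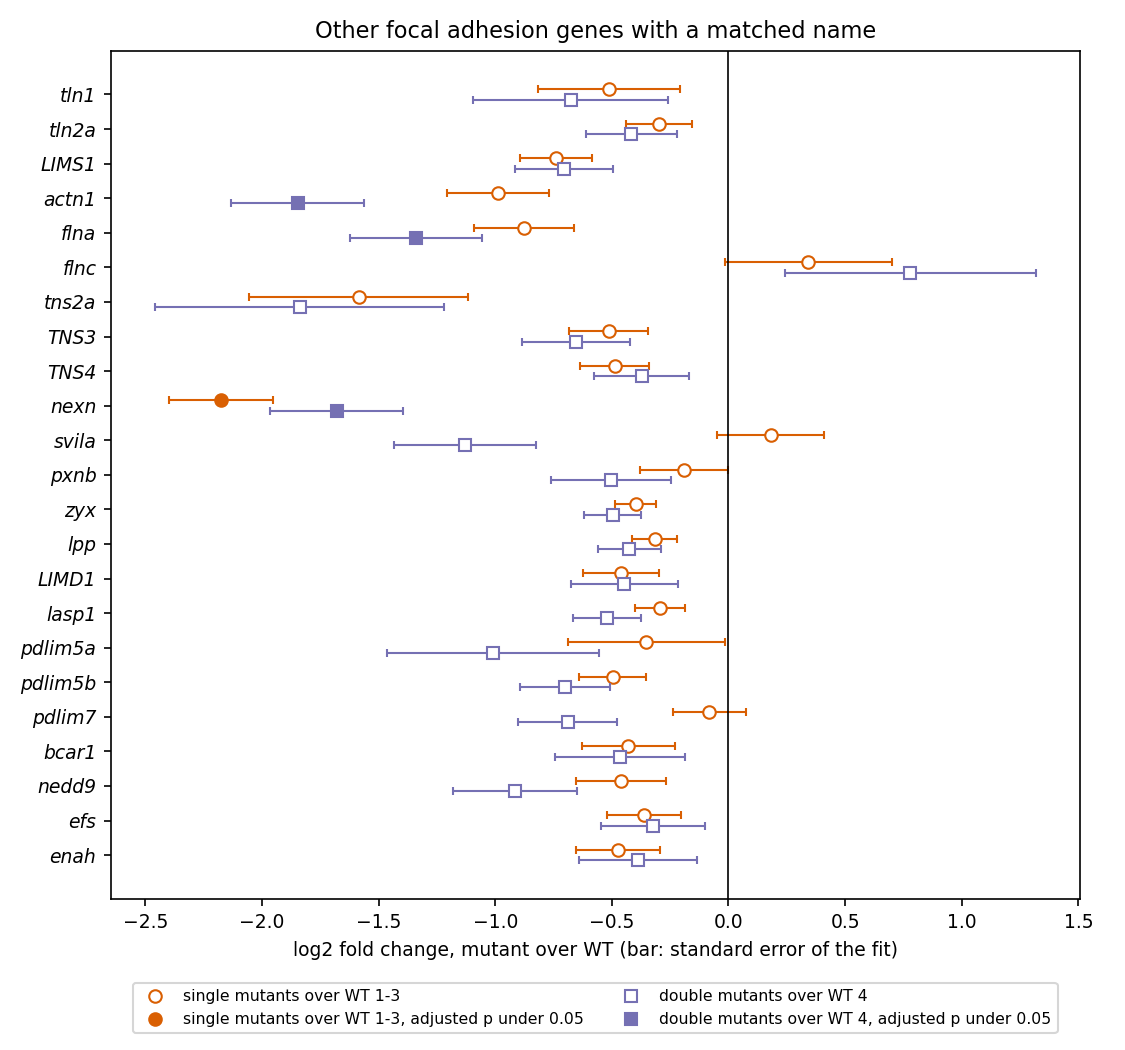
Log2 fold changes (x axis, with the standard error of the fit) of the 23 other focal adhesion genes with a matched name, in the single mutants over WT 1–3 and the double mutants over WT 4. Filled points were called at an adjusted p under 0.05 (*nexn* in both mutants, *actn1* and *flna* in the double mutants). All points but *flnc* in both mutants and *svila* in the single mutants lie left of 0. Over WT 1–3, *pxnb* and *svila* also lie right of it in the double mutants (0.07 and 0.14).

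Single mutant 1 and double mutant 1 had the lowest TMM factors (0.887 and 0.902) and the highest shares of ambiguous reads (9.60% and 9.86%). Single mutant 1 was the lowest single mutant for 16 of the 23 genes of the list and double mutant 1 the lowest double mutant for 15, against 41.9% and 40.1% of all tested genes. Among the 5 genes this was so for 1 (*cav1*) in single mutant 1 and for 3 (*sorbs3*, *apbb1ip* and *cav1*) in double mutant 1. Leaving both libraries out, a run chosen after seeing the data, gave 5 genes of the list called in the single mutants in place of 1. Of the 5 genes, 3 were called in the single mutants as before, and all 5 in the double mutants. Calls rose over all tested genes too, from 0.6% to 1.35% called lower in the single mutants and from 2.02% to 3.19% in the double mutants. The part of these libraries in the folds was not tested beyond this.

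Whole embryos at this stage hold all germ layers, and the markers of each were present, with counts in every library for 7 of 7 non-neural ectoderm markers, 3 of 3 markers of neural ectoderm and organizer, 9 of 10 of mesoderm and 9 of 10 of endoderm. The non-neural ectoderm markers, taken as a sum, were lower in both mutants than in WT. The summed level was between 18149 and 20521 normalized counts in single mutant libraries and between 15614 and 17123 in double mutant libraries, against 25133 to 26554 in WT 1–3 and 26754 in WT 4. *gata2a* and *tp63* were called lower in the single mutants, with log2 fold changes of −0.78 and −0.74 (adjusted p = 0.0181 and 0.0255, edgeR's quasi-likelihood test), and *dlx3b*, *gata2a* and *tp63* in the double mutants, with −0.87, −1.22 and −1.12 (adjusted p = 0.0105, 0.0051 and 0.00722). Of all tested genes, 0.6% were called lower in the single mutants and 2.02% in the double mutants. *tfap2a*, of the same list, had −0.07 and −0.47 and was not called, nor were *foxi1* and *bmp2b*. *prdm1a* was not called, with −0.08 in the single mutants and 0.22 in the double mutants over WT 4. The double mutants had 2369, 1680 and 2196 normalized counts of *prdm1a*, against 3201 to 3547 in WT 1–3 and 1785 in WT 4. Its direction in the double mutants thus depended on the WT library. Single mutant 2 had 3881 normalized counts of *prdm1a*, above every WT library (at most 3547). *dlx3b* and *tfap2a* were higher in WT 4 (5123 and 8305 normalized counts) than in each of WT 1–3 (at most 4014 and 6502), as were 44.7% of all tested genes. Of the same list *gata2a*, *foxi1* and *prdm1a* were lower in WT 4 (7233, 1138 and 1785) than in each of WT 1–3 (at least 7253, 1154 and 3201). This held for 36.7% of all tested genes. *bmp2b* and *tp63* in WT 4 lay within the range of WT 1–3.

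Of the 3 neural ectoderm and organizer markers and the 9 mesoderm markers tested, none was called in either mutant. For neural ectoderm and organizer the sums were 12570 to 15423 in single mutant and 12206 to 14760 in double mutant libraries. WT 1–3 had 11359 to 12172 and WT 4 had 11254. In the double mutants *sox3* had 7780 to 9630 normalized counts, against 5499 to 6193 in WT 1–3 and 7195 in WT 4. There *chrd* had 3512 to 4249, against 4329 to 4574 and 3250, and *otx2b* 881 to 970, against 1296 to 1405 and 810. For mesoderm the sums were 24098 to 31240 in single mutant and 23079 to 33410 in double mutant libraries. WT 1–3 had 20853 to 22849 and WT 4 had 22647. The mesoderm markers did not all go the same way. In the double mutants *cdx4* had 9657 to 16320 normalized counts, against 5840 to 6888 in WT 1–3 and 9804 in WT 4. *tbxta* had 1748 to 2320 there, against 3734 to 4128 in WT 1–3 and 2161 in WT 4. The endoderm sums were 13447 to 15495 in single mutant and 10639 to 11313 in double mutant libraries, against 12916 to 13746 in WT 1–3 and 9772 in WT 4. Of the 8 endoderm markers tested, *eml2* was called lower in the double mutants, with 149, 209 and 285 normalized counts against 781 in WT 4, while WT 1–3 had 65.0 to 127 (adjusted p = 0.0427). The part of these markers, and of the share of cells they mark, in the levels of the 5 genes was not tested.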

How the data were processed

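The authors trimmed the reads with Trimmomatic, removed ribosomal reads, mapped them with HISAT2 to the medaka genome ASM223467v1, kept reads of high mapping quality with SAMtools and counted them per gene with HTSeq on Ensembl annotation. Raw counts are what they deposited, with no normalization. The later steps of the study (filter, batch correction, DESeq2) are not in them. Reads in no gene (10.6% to 11.3%) and ambiguous reads (7.94% to 9.86%) stayed out of library sizes. The 16513 genes with a mean of at least 10 counts were fitted in edgeR 4.0.16 under R 4.3.3 (TMM factors, genotype and library set in the model, quasi-likelihood test), and p-values were adjusted by Benjamini-Hochberg over all of them. A gene was called at an adjusted p under 0.05. Log2 CPM used a prior count of 2. The code was tested on simulated data. DESeq2 1.42.0 was an alternative, beside other normalization, filters, references and left-out libraries. P-values set a difference against the spread between these libraries, which may be technical. In the model with the set, WT 4 is the only WT library beside the double mutants, so no spread between WT libraries of that set was measured. Symbols came from the study's supplementary tables and coordinates from RefSeq. Named are the 5 genes, *yap1*, *yap1b*, up to 8 called genes of the wider list per mutant, members of that list as examples chosen after their values were seen, and the 3 most alike genes of each of the 5, of which 1 is not reported here. The 5 genes, the lists and the tests were chosen with earlier results of these data known. Promoter motifs were not analysed here.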

Additional observations from a re-analysis of the deposited data

Results flagged for a closer look

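In 6 of the 30 genes examined (the 5 genes, the 23 of the wider list, *yap1* and *yap1b*), 1 WT library lay so far from the other 3 that the gap passed Dixon's 95% critical value for 4 samples, and in all 6 that library was WT 4. Chance alone would flag about 1 in 20 groups, and the 6 are not independent, since they share the library. WT 4 lay above each of WT 1–3 for 44.7% of all tested genes and below each for 36.7%. The share of all tested genes that pass the same critical value was not examined, so whether the flags are particular to these genes is not known. *fermt1* had 4919 normalized counts in WT 4, against 3054 to 3271 in WT 1–3. *cav1* had 1542 in WT 4, against 862 to 927 in WT 1–3. In the wider list, *svila* (supervillin) had 634 in WT 4, against 229 to 291, *pdlim7* had 1184, against 805 to 846, and *bcar1* had 1003, against 1874 to 1962. *yap1* itself had 5470 in WT 4, against 9028 to 9358 in WT 1–3.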

How the results depend on the processing

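No fold change of the 5 genes changed its sign under any alternative run. With genotype alone, the log2 fold changes in the single mutants were −1.19 (*fermt1*), −0.59 (*vclb*), −0.36 (*sorbs3*) and −0.33 (*cav1*), and in the double mutants −1.15, −1.09, −0.39 and −0.71. Against WT 1–3 with no set, the double mutants had −0.96, −1.15, −0.25 and −0.48. Leaving out single mutant 1 and double mutant 1, chosen after seeing the data, gave −0.66 for *sorbs3* in the double mutants. The cause of these shifts was not tested, beyond the levels in WT 4 given above. Apart from the replicate block and the runs leaving out 1 library, given below, other values of the 5 genes moved by less than the pooled SD between replicates. That SD differed by gene, from 0.0586 log2 for *vclb* to 0.795 for *apbb1ip*, so it is a loose bound for *apbb1ip*. With genotype alone *apbb1ip* had −2.71 in the single mutants and −2.87 in the double mutants.

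The correlation of residuals between libraries that share a number ran from −0.06 to 0.49, and between libraries of different numbers from −0.41 to 0.36. These ranges overlap and come from few libraries, so they cannot decide whether the numbers pair the libraries. With the replicate block in place of the set and without WT 4, the double mutants had −0.97 (*fermt1*), −1.15 (*vclb*), −0.25 (*sorbs3*) and −0.49 (*cav1*), and 2 genes of the wider list were called lower for the single mutants and 16 for the double mutants (0.551% and 23.0% of all genes). In that run *sorbs3* was not called in the double mutants and *apbb1ip* was. Both held against WT 1–3 with no block and with genotype alone as well.

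Genes of the wider list called lower in the single mutants numbered 7 with DESeq2 (1.92% of all genes) and 5 without single mutant 1 and double mutant 1 (1.35%), in place of 1 (0.6%). In the double mutants, in place of 3 (2.02%), they numbered 16 with genotype alone (13.1%) and 16 against WT 1–3 (21.3%), 7 with DESeq2 (3.41%) and 1 with each set fitted alone (0.418%), where fewer libraries set the spread. With each set alone 1 of the 5 genes was called in the double mutants, in place of 4.

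Leaving out 1 library at a time, the single mutants ranged over −1.07 to −0.96 (*fermt1*), −0.70 to −0.62 (*vclb*), −0.26 to −0.17 (*sorbs3*), −3.16 to −2.61 (*apbb1ip*) and −0.16 to −0.02 (*cav1*), and the double mutants over −1.70 to −1.53, −0.90 to −0.86, −0.80 to −0.71, −3.29 to −2.14 and −1.36 to −1.16. Calls among the 5 genes ranged from 1 to 3 in the single mutants (1 without WT 1, WT 2, WT 3, single mutant 2 or single mutant 3) and from 3 to 5 in the double mutants. In the wider list calls ranged from 1 to 2 in the single mutants (2 without single mutant 1) and from 2 to 4 in the double mutants. Without WT 4 the model with the set gives no value for the double mutants.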
